A study of Mus musculus with 8 samples.

Results

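The genes described here are 47 genes of fatty acid uptake, activation and storage, mitochondrial β-oxidation, ketone body use and their nuclear receptors. They were listed by symbol and matched to the Ensembl gene identifiers of the deposited table, which holds 53465 genes. Every one of the 47 matched 1 identifier, and 46 had enough reads to be tested between the groups. The exception was *Ucp3*, a mitochondrial uncoupling protein of muscle, with 0 to 10 reads in a library.

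The study profiled polyadenylated RNA from the heart ventricles of mouse embryos at embryonic day 15.5. One group of 4 libraries, called *Nrg1GOF*, came from embryos that overexpress neuregulin-1 (Nrg1), a growth factor of the heart that signals through ErbB receptors. Their genotype is labelled Rosa26Nrg-1;Nkx5.5-Cre, and the title of the series names the driver Nkx2.5-Cre, which acts in the cells that form the heart and not in muscle cells alone. The other group of 4 libraries came from wild type (WT) embryos, and each replicate was a single ventricle sample, so that p-values measure the spread between these 8 samples. No treatment is labelled in either group, and the labels name no group that carries the Cre driver or the transgene without the other.

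Long-chain fatty acids enter the cardiomyocyte through CD36 and are carried by fatty acid-binding protein. Acyl-CoA synthetases activate them, and the carnitine shuttle, with carnitine palmitoyltransferase 1 as its gate, moves them into mitochondria. There the β-oxidation spiral shortens the chain step by step, and the electrons pass through the electron transfer flavoprotein to ubiquinone. Malonyl-CoA blocks the gate. The receptors PPARα and ERRα and their coactivator PGC-1α drive transcription of many of these genes. The fetal heart relies largely on glucose and lactate, and fatty acid oxidation takes over as its main fuel after birth.

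*Nrg1*, the overexpressed gene, stood between 59.7 and 63.7 CPM (counts per 1000000 counts of the library, with library sizes scaled by the trimmed mean of M values, TMM) in the *Nrg1GOF* libraries and between 3.07 and 4.47 CPM in the WT libraries. Library totals ranged from 8038641 counts in *Nrg1GOF* library 4 to 26786039 in WT library 1. The ventricular cardiomyocyte markers were abundant in every library. Of 8 markers of fat cells 4 (*Adipoq*, *Cidec*, *Lep* and *Cfd*) were at 0 in all 8 libraries and 1 had enough reads to test, *Fabp4*, which fell from 147 ± 12.1 to 105 ± 5.88 CPM (SD, n = 4) and is also made by endothelial cells. Of 10 liver markers *Fga* was at 0 and only *Trf*, which rose from 9.17 ± 2.15 to 22.8 ± 1.66 CPM, was tested. Of 10 skeletal muscle markers *Myod1* was at 0 and 6 were tested, of which *Myh8* (4.70 to 11.2 CPM in the mean) and *Actn3* (0.552 to 1.37 CPM) rose and *Tnni2* (6.49 to 2.35 CPM) fell. Some libraries stood apart within their group. WT libraries 3 and 4 had 3137 to 3221 CPM of summed markers listed as atrial, against 4877 to 5020 CPM in WT libraries 1 and 2. Their summed red blood cell markers stood at 4417 to 5504 CPM, against 12200 to 13040 CPM in WT libraries 1 and 2.

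Fatty acid oxidation genes were lower in the *Nrg1GOF* ventricles as a broad, moderate shift. Of the 46 tested genes, 29 fell and 2 rose at an adjusted p under 0.05 (edgeR quasi-likelihood test, Benjamini-Hochberg adjustment over 15580 genes). The 31 called genes made up 67.4% of those tested, against 28.7% of all tested genes. The 29 that fell were 63%, against 12.8% of all genes called lower, and the 2 that rose were 4.35%, against 15.9% of all genes called higher. The genes were chosen with earlier results of these data known, so these shares and those below describe the list and do not test it. The median log2 fold change (*Nrg1GOF* over WT) was -0.36 for the 46 genes and -0.01 for all genes tested. The gene with the smallest called fall fell by 15.7% and the one with the largest fell by 48.3%, and no called change reached 1 on the log2 scale.

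The 4 *Nrg1GOF* libraries did not overlap the 4 WT libraries in 29 of the 46 genes (63%, against 30.7% of all genes tested), 27 of them lower and 2 higher. Summed over all 47 genes, the *Nrg1GOF* libraries held 5757.1 to 7097.5 CPM and the WT libraries 8297.7 to 9017.3 CPM. *Nrg1GOF* library 3 was the lowest of its group in 35 of the 46 genes and library 4 the highest in 31. WT libraries 3 and 4 were both above WT libraries 1 and 2 in 25 of the 46 genes, where 31% of all genes tested had that order. The labels name no pair, litter or batch among the WT libraries, which are 4 separate replicates. Against WT libraries 1 and 2 alone, 23 of the 46 genes were called, and against WT libraries 3 and 4 alone, 29. With each of these WT pairs summed to 1 sample, 22 were called, without *Acot13*, *Cpt2*, *Acadl*, *Hadh*, *Echs1*, *Decr1*, *Etfb*, *Ppard* and *Esrrb*. These fits hold fewer WT samples, and the share of all genes called in them was not counted.

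**Figure D1:**
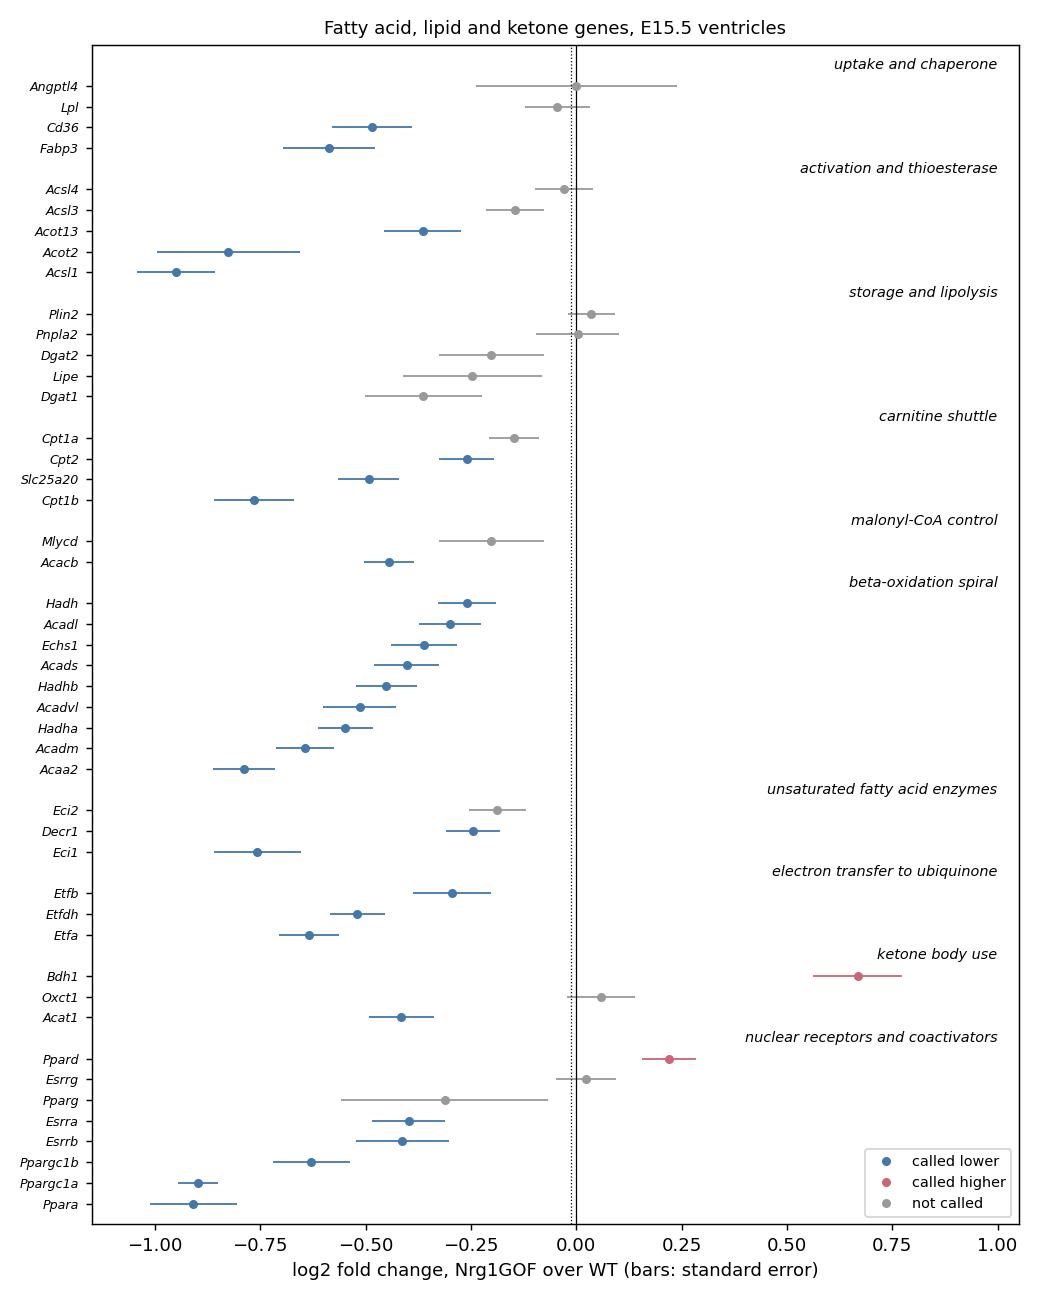
Log2 fold change of each of the 46 tested genes (x axis, *Nrg1GOF* over WT, 4 libraries a group; points with standard errors), grouped by role. Most points lie left of 0, between -0.95 and 0, and *Bdh1* at 0.67 lies furthest to the right.

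In bulk ventricle RNA, fewer cardiomyocytes and less RNA per cardiomyocyte cannot be told apart. The markers of ventricular cardiomyocytes moved with the oxidation genes: 8 of 12 fell and none rose, with a median log2 fold change of -0.39, and their summed level was 29710 to 36960 CPM in the *Nrg1GOF* libraries and 43760 to 45190 CPM in the WT libraries. Markers of fibroblasts, epicardium and mural cells moved the other way, with 11 of 13 higher and 2 lower (7736 to 9856 CPM against 4304 to 5786 CPM), and so did those of macrophages, with 9 of 10 higher (154 to 183 CPM against 83.8 to 95.7 CPM). Of 10 markers listed as atrial 5 rose and 1 fell. The rises include *Bmp10* (log2 fold change 0.77 ± 0.09, SE, edgeR adjusted p = 0.000299). The paper located *Bmp10* RNA in the trabeculae, muscle projections inside the ventricle, of wild type hearts at this stage. It also reported raised trabecular markers in this model. *Myh6*, the most abundant of the list (2830 ± 980.5 CPM in WT, SD, n = 4), was not called. Whether atrial or trabecular muscle underlies these rises was not tested. Of 10 endothelial markers 4 rose and 1 fell, and of 9 red blood cell markers none passed the test. The part of these shifts in the lower levels below was not tested by cell type, but the genes were also measured relative to the cardiomyocyte markers, as given after the roles. Mitochondrially encoded genes took 3.1% to 4.35% of the counts in the *Nrg1GOF* libraries and 4.3% to 5.78% in the WT libraries.

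At the cell surface and in the cytosol, the carriers *Cd36* and *Fabp3* fell and the lipase *Lpl* did not pass the test. Of 9 further uptake genes, given with the further lists, 2 fell and 2 rose, *Fabp5* and *Slc27a6*. *Cd36*, the fatty acid translocase, was at 310.1, 282, 247 and 269.9 CPM in the *Nrg1GOF* libraries, in their order 1 to 4, against 341, 358, 416 and 436 CPM in the WT libraries. Every *Nrg1GOF* library was below every WT library, and the log2 fold change was -0.49 ± 0.10 (SE, n = 4 a group; edgeR adjusted p = 0.00426). *Fabp3*, the fatty acid-binding protein of heart muscle, stood at 295, 317, 255 and 386 CPM in the *Nrg1GOF* libraries and at 484, 449, 458 and 488 CPM in the WT libraries. The groups again did not overlap, with *Nrg1GOF* library 4 nearest to WT, and the log2 fold change was -0.59 ± 0.11 (SE; edgeR adjusted p = 0.00312). *Lpl*, lipoprotein lipase, had 476 ± 47.4 CPM in *Nrg1GOF* and 491 ± 24.9 CPM in WT (SD, n = 4; edgeR adjusted p = 0.717). *Angptl4*, an inhibitor of that lipase, averaged 9.45 CPM in *Nrg1GOF* and 9.44 CPM in WT, with WT libraries 1 and 2 at 6.80 and 6.27 CPM and WT libraries 3 and 4 at 12.5 and 12.2 CPM. Its log2 fold change was 0.53 against the first pair alone and -0.37 against the second (edgeR adjusted p = 0.059 and 0.0947).

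Among the genes that turn fatty acids into acyl-CoA and back, *Acsl1* had the largest change of the 46. *Acsl1* (ENSMUSG00000018796, GRCm38 chr8:46471037-46536051, plus strand), the main long-chain acyl-CoA synthetase of heart, was at 141, 129, 120.2 and 154 CPM in the *Nrg1GOF* libraries, in their order 1 to 4, against 238, 242, 281 and 288 CPM in the WT libraries. It fell by 48.3%, a log2 fold change of -0.95 ± 0.09 (SE; edgeR adjusted p = 9.53e-05), and the groups lay far apart. Its relatives *Acsl3* and *Acsl4* had log2 fold changes of -0.15 and -0.03 that did not pass the test (edgeR adjusted p = 0.148 and 0.798). *Acot2*, a mitochondrial thioesterase that frees fatty acids from acyl-CoA, was at 38.8, 42.0, 35.8 and 56.6 CPM in the *Nrg1GOF* libraries and at 64.3, 59.8, 90.6 and 88.3 CPM in the WT libraries. The highest *Nrg1GOF* library lay just under the lowest WT library, and the log2 fold change was -0.83 ± 0.17 (SE; edgeR adjusted p = 0.00557). *Acot2* is a close paralog of its neighbour *Acot1*, and how reads that match both were split between them was not measured here. *Acot13*, another thioesterase, fell by 22.3% (edgeR adjusted p = 0.0142), a call that was lost when WT libraries 3 and 4 were left out.

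None of the 5 genes of triglyceride storage and breakdown passed the test: *Plin2*, which coats lipid droplets, *Dgat1* and *Dgat2*, which make triglycerides, and the lipases *Pnpla2* and *Lipe*. *Plin2* was at 45.1 ± 0.82 CPM in *Nrg1GOF* and 44.0 ± 2.63 CPM in WT (SD, n = 4), a difference within the spread between libraries. *Dgat1* had the lowest log2 fold change of the 5, at -0.36 ± 0.14 (SE; edgeR adjusted p = 0.079), with its 2 highest values in WT libraries 3 and 4 (28.4 and 30.6 CPM). Against those 2 WT libraries alone it was called lower, as was *Dgat2*, while against WT libraries 1 and 2 alone the log2 fold change of *Dgat1* was -0.09 (edgeR adjusted p = 0.604) and that of *Dgat2* was 0.00265. *Dgat1* was also called lower without WT library 1 (edgeR adjusted p = 0.0277).

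At the carnitine shuttle, 3 of 4 genes fell. *Cpt1b* (ENSMUSG00000078937, GRCm38 chr15:89416405-89425863, minus strand), the muscle form of carnitine palmitoyltransferase 1, was at 204, 220.1, 201 and 241 CPM in the *Nrg1GOF* libraries, in their order 1 to 4, against 333, 322, 407 and 407 CPM in the WT libraries. The groups did not overlap, and it fell by 41.1%, a log2 fold change of -0.76 ± 0.10 (SE; edgeR adjusted p = 0.000349). *Cpt1a*, the liver form that is also used by the fetal heart, stood at 113, 103, 102 and 110.4 CPM in the *Nrg1GOF* libraries against 112, 114, 124 and 124 CPM in the WT libraries. *Nrg1GOF* library 1 lay above WT library 1, and the log2 fold change of -0.15 ± 0.06 (SE) did not pass the test (edgeR adjusted p = 0.0963).

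The ratio of *Cpt1b* to *Cpt1a* counts was 1.8 to 2.18 in the *Nrg1GOF* libraries and 2.84 to 3.28 in the WT libraries. Its log2 difference of -0.61 had p = 0.0286 in a two-sided exact permutation test, the smallest that 4 against 4 libraries can give, and 0.0571 after adjustment over the 4 ratios compared. The ratio of *Acsl1* to *Acsl4* gave the same p-values by the same exact test, with 2.14 to 2.55 in the *Nrg1GOF* libraries, 3.79 to 5.12 in the WT libraries and a log2 difference of -0.92. The ratios of *Mlycd* to *Acacb* and of *Ppargc1a* to *Ppargc1b* overlapped between the groups, with adjusted p = 0.114 for both (exact permutation test). The design could not place any of the 4 ratios below 0.05 after adjustment unless 3 or more of them were fully separated.

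Further along the shuttle, *Slc25a20*, the carnitine-acylcarnitine carrier of the inner membrane, fell from 75.8 ± 2.33 to 54.1 ± 5.45 CPM (SD, n = 4; edgeR adjusted p = 0.000854). *Cpt2*, which returns the chain to coenzyme A, fell by 16.5% (edgeR adjusted p = 0.0145), and lost its call when WT libraries 3 and 4 were left out. Of the malonyl-CoA pair, *Acacb*, the acetyl-CoA carboxylase that makes the inhibitor at mitochondria, fell from 174 ± 7.63 to 128 ± 8.07 CPM (SD, n = 4; edgeR adjusted p = 0.000536). *Mlycd*, the decarboxylase that removes it, had a log2 fold change of -0.20 ± 0.12 (SE; edgeR adjusted p = 0.265). Its *Nrg1GOF* libraries 1 to 3 lay between 22.1 and 23.8 CPM and library 4 at 33.4 CPM. Without library 4 the log2 fold change was -0.33 and *Mlycd* was called lower (edgeR adjusted p = 0.0146).

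**Figure D2:**
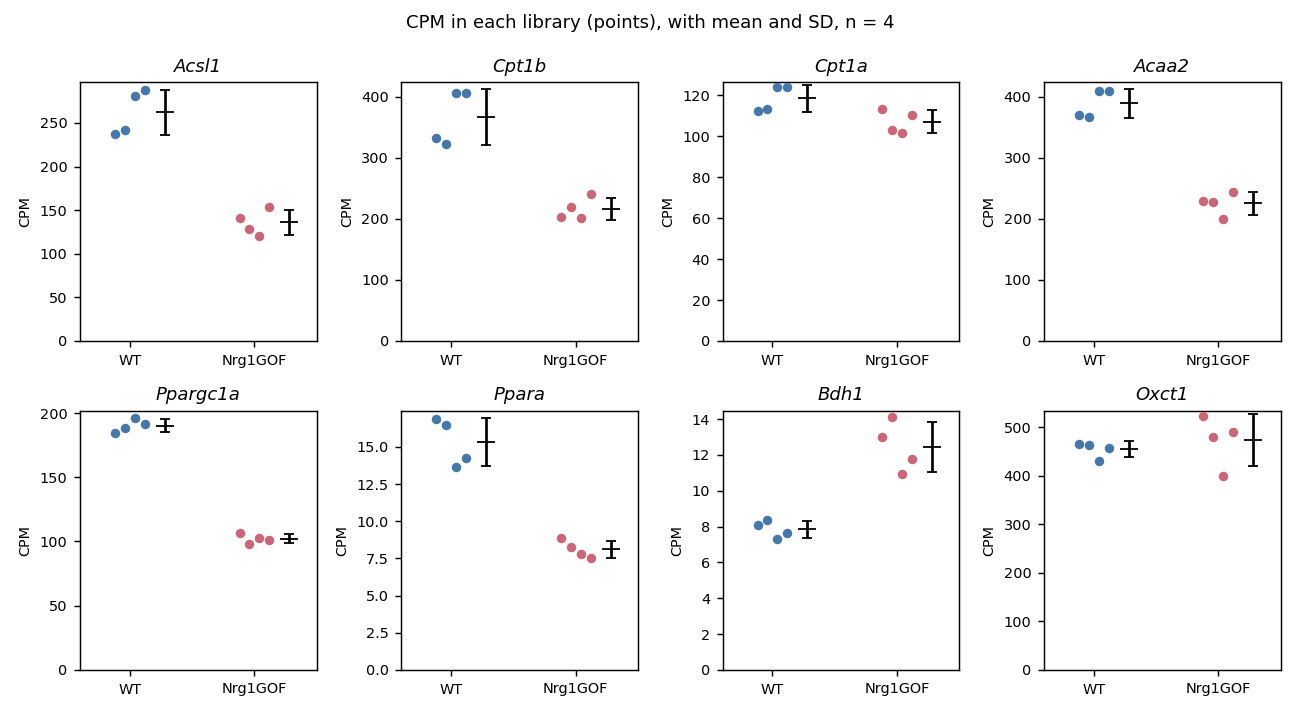
Level of selected genes in each library (y axis, CPM from 0; points are libraries, black bars the mean ± SD, n = 4). The 4 *Nrg1GOF* points of *Cpt1b*, *Acsl1*, *Ppara* and *Ppargc1a* lie below all 4 WT points, while those of *Cpt1a* and *Oxct1* overlap with WT.

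All 9 genes of the β-oxidation spiral fell on the TMM scale, with a median log2 fold change of -0.45. Relative to the cardiomyocyte markers, as given after the roles, only *Acaa2* and *Acadm* of the 9 were lower and *Hadh* was higher. The rest were not called on that scale, with *Acadl*, *Acads* and *Echs1* above 0. Together they held 2512, 2468, 2178 and 2697 CPM in the *Nrg1GOF* libraries against 3335, 3259, 3501 and 3562 CPM in the WT libraries (1 to 4 in each), a fall by 27.8% in the mean. *Acaa2* and *Acadm* had the largest falls of the 9. *Acadm*, the dehydrogenase for medium chains, was at 231, 226, 197 and 244 CPM in the *Nrg1GOF* libraries and at 354, 335, 349 and 363 CPM in the WT libraries. The gap between the groups was wider than the spread in either, and the log2 fold change was -0.64 ± 0.07 (SE; edgeR adjusted p = 0.00014). *Acaa2*, the thiolase that releases acetyl-CoA, stood at 229.6, 228, 199 and 244 CPM in the *Nrg1GOF* libraries and at 370.2, 366, 409 and 409.5 CPM in the WT libraries. It fell by 42.1% with no overlap, a log2 fold change of -0.79 ± 0.07 (SE; edgeR adjusted p = 7.37e-05).

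The other acyl-CoA dehydrogenases, which act on different chain lengths, fell as well. *Acadvl*, for very long chains, fell by 30.0% (from 267 ± 20.1 to 187 ± 21.1 CPM, SD, n = 4). *Acadl*, for long chains, fell by 18.8% and *Acads*, for short chains, by 24.3%. *Hadha* and *Hadhb*, the subunits of the trifunctional protein, fell by 31.6% and fell by 26.8%, respectively. *Echs1*, the enoyl-CoA hydratase, fell by 22.2%. *Hadh*, the dehydrogenase for shorter hydroxyacyl chains, had the smallest fall of the 9, by 16.4% (edgeR adjusted p = 0.0181), and its adjusted p was 0.0555 without *Nrg1GOF* library 2 and 0.0521 without WT library 4. Against WT libraries 1 and 2 alone *Acadl* and *Hadh* lost their calls, and *Hadh* did so against WT libraries 3 and 4 alone as well. With each WT pair summed to 1 sample, *Acadl* (edgeR adjusted p = 0.0928), *Hadh* (0.106) and *Echs1* (0.0567) were not called, which left 6 of the 9. Differences between these genes in the size of their fall were not tested.

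The promoters of the genes were searched for the letters that nuclear receptors of this pathway read, since many of the genes moved together. The reference table of promoters (RefSeq, build GRCm38.p6, 250 bases before to 50 bases after the annotated start) held 37 of the 47 genes. On both strands, the half-site AGGTCA, which lies within both longer motifs, was found in 9 of the 37 (24.3%), against 18.1% of the 27025 genes in the table. Of the 23 genes that fell and had a promoter there, 5 held it: *Acacb*, *Acadm*, *Acadvl*, *Cd36* and *Echs1*. The extended half-site TCAAGGTCA, the form read by ERR proteins, was in none of the 37 and in 0.466% of all genes. The direct repeat of the half-site with 1 base between, AGGTCANAGGTCA, the form read by PPAR with RXR, was in none of the 37 and in 0.0481% of all genes. A match describes the letters only, and its absence says no more than that these letters are not in this window.

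The 250 bases before the start are shown for 3 genes of the spiral that fell and hold a half-site, written 5′ to 3′ on the strand of the gene, with the half-site in capitals (TGACCT where it lies on the other strand). *Acadm* is at chr3:153944644-153944893 on the minus strand, with the half-site beginning 249 bases before the start. *Acadvl* is at chr11:70015429-70015678 on the minus strand, with the half-site 87 bases before the start. *Echs1* is at chr7:140116422-140116671 on the minus strand, with the half-site 83 bases before the start.
Acadm: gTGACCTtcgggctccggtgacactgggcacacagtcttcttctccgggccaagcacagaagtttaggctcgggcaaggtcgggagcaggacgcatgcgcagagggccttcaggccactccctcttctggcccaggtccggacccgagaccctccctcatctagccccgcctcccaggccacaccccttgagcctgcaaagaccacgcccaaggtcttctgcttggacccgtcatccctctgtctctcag
Acadvl: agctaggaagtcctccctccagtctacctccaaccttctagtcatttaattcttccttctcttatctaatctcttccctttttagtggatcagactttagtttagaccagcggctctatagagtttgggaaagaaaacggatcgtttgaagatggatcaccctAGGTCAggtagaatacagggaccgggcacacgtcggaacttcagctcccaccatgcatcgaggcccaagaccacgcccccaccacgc
Echs1: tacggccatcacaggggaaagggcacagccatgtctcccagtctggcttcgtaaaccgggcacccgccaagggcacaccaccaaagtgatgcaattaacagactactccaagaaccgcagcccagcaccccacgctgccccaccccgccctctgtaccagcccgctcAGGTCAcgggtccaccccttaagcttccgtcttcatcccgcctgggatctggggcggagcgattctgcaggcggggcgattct
The fall of these 3 genes was 36.0% for *Acadm*, 30.0% for *Acadvl* and 22.2% for *Echs1*. *Acaa2*, *Cpt1b* and the other genes of the spiral fell without a half-site in the window or were not in the table.

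Of the enzymes that handle double bonds, *Eci1*, the mitochondrial enoyl-CoA isomerase, was at 62.0, 64.2, 56.7 and 81.8 CPM in the *Nrg1GOF* libraries, in their order 1 to 4, against 111, 102, 112 and 119 CPM in the WT libraries. *Nrg1GOF* library 4 was the highest of its group and still below every WT library, and the log2 fold change was -0.76 ± 0.10 (SE; edgeR adjusted p = 0.00059). *Decr1*, the dienoyl-CoA reductase, fell by 15.7% (edgeR adjusted p = 0.017), and *Eci2*, another isomerase, had a log2 fold change of -0.19 ± 0.07 (SE; edgeR adjusted p = 0.0635). *Decr1* was not called against either pair of WT libraries alone.

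All 3 genes that pass the electrons on fell. *Etfa*, the α subunit of the electron transfer flavoprotein, was at 181, 166, 149 and 186 CPM in the *Nrg1GOF* libraries and at 270.3, 254, 263 and 269.7 CPM in the WT libraries. The WT libraries lay close together and above all *Nrg1GOF* libraries, with a log2 fold change of -0.63 ± 0.07 (SE; edgeR adjusted p = 0.000215). *Etfdh*, the ubiquinone oxidoreductase that accepts the electrons, fell by 30.2% without overlap (edgeR adjusted p = 0.000356). The β subunit gene *Etfb* fell less, by 18.5% (edgeR adjusted p = 0.0376), with *Nrg1GOF* library 4 at 184 CPM above WT library 2 at 179.8 CPM. Its call was lost on leaving out *Nrg1GOF* library 1, 2 or 3 or WT library 1, 3 or 4, with adjusted p up to 0.0917.

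Of the 3 ketone genes 1 rose, 1 fell and 1 did not pass the test. *Bdh1* (ENSMUSG00000046598, GRCm38 chr16:31422280-31458901, plus strand), which interconverts β-hydroxybutyrate and acetoacetate, was at 12.98, 14.1, 10.9 and 11.8 CPM in the *Nrg1GOF* libraries, in their order 1 to 4, against 8.10, 8.35, 7.32 and 7.62 CPM in the WT libraries. All *Nrg1GOF* libraries were above all WT libraries, and it rose by 58.8%, a log2 fold change of 0.67 ± 0.11 (SE; edgeR adjusted p = 0.00134). An annotated gene on the opposite strand, *Gm15743*, overlaps *Bdh1*, as such genes do for 18 of the 47, and 11 overlap another gene on their own strand, as *Cpt1b* does *Gm44502*. Reads of these pairs may be split between them. *Oxct1*, the CoA transferase that commits ketone bodies to oxidation, stood at 523, 480.3, 398 and 490.5 CPM in the *Nrg1GOF* libraries and at 466, 464, 429.8 and 457 CPM in the WT libraries. *Nrg1GOF* library 3 was the lowest of the 8 and the other *Nrg1GOF* libraries were above all WT libraries, with a log2 fold change of 0.06 ± 0.08 (SE; edgeR adjusted p = 0.633). It was 0.14 (edgeR adjusted p = 0.0806) without *Nrg1GOF* library 3 and 0.00682 without *Nrg1GOF* library 1. *Acat1*, the thiolase that splits acetoacetyl-CoA, fell by 25.0% from 361 ± 12.9 to 271 ± 28.9 CPM (SD, n = 4; edgeR adjusted p = 0.00315).

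Among the nuclear receptors and coactivators, 5 of 8 genes fell and 1 rose, and *Ppara* and *Ppargc1a* had the largest changes. *Ppara* (ENSMUSG00000022383, GRCm38 chr15:85734983-85802819, plus strand), the fatty acid receptor that drives oxidation genes, was at 8.85, 8.24, 7.83 and 7.50 CPM in the *Nrg1GOF* libraries, in their order 1 to 4, against 16.9, 16.5, 13.6 and 14.2 CPM in the WT libraries. It fell by 46.7% without overlap, and here WT libraries 3 and 4 were the lower pair (log2 fold change -0.91 ± 0.10, SE; edgeR adjusted p = 0.000213). *Ppargc1a* (ENSMUSG00000029167, GRCm38 chr5:51454250-51567726, minus strand), which encodes the coactivator PGC-1α, was at 106, 98.3, 103 and 101 CPM in the *Nrg1GOF* libraries and at 184, 189, 196 and 191 CPM in the WT libraries. Both groups were tight, and it fell by 46.3%, a log2 fold change of -0.90 ± 0.05 (SE) with the lowest adjusted p of the 46 genes (edgeR, 3.73e-06).

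*Ppargc1b*, the related coactivator PGC-1β, stood at 17.7, 16.5, 21.0 and 21.4 CPM in the *Nrg1GOF* libraries and at 31.0, 29.0, 27.7 and 30.0 CPM in the WT libraries. It too fell without overlap (log2 fold change -0.63 ± 0.09, SE; edgeR adjusted p = 0.000834). *Esrra*, which encodes ERRα, was at 57.8, 66.9, 63.7 and 75.5 CPM in the *Nrg1GOF* libraries and at 82.7, 79.2, 90.9 and 93.4 CPM in the WT libraries. *Nrg1GOF* library 4 came close to WT library 2 without overlap, and the log2 fold change was -0.40 ± 0.09 (SE; edgeR adjusted p = 0.00705), with adjusted p = 0.0592 against WT libraries 1 and 2 alone.

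*Esrrb*, the β form, fell by 24.9% (edgeR adjusted p = 0.02), with *Nrg1GOF* library 4 at 13.9 CPM above WT library 4 at 13.8 CPM. Its adjusted p was 0.0564 without *Nrg1GOF* library 1 and 0.0732 without *Nrg1GOF* library 2. *Esrrg*, the γ form, which is abundant in heart, had a log2 fold change of 0.02 ± 0.07 (SE; edgeR adjusted p = 0.84). *Ppard*, the widely expressed PPAR, rose by 16.5% without overlap (edgeR adjusted p = 0.0278), a call that was lost on leaving out *Nrg1GOF* library 2 or 3 or WT library 1, 2 or 4, with adjusted p up to 0.0934. *Pparg*, the fat cell receptor, was at 1.38 to 3 CPM in *Nrg1GOF* and 2.02 to 3.11 CPM in WT and did not pass the test. *Ucp3* was not tested, with at most 0.125 CPM in the *Nrg1GOF* libraries and 0.109 to 0.410 CPM in the WT libraries, where 3 counts correspond to 0.115 to 0.375 CPM depending on the library. These limits follow from the library totals and cover counting error at most. Reads were not counted by molecular identifiers.

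**Figure D3:**
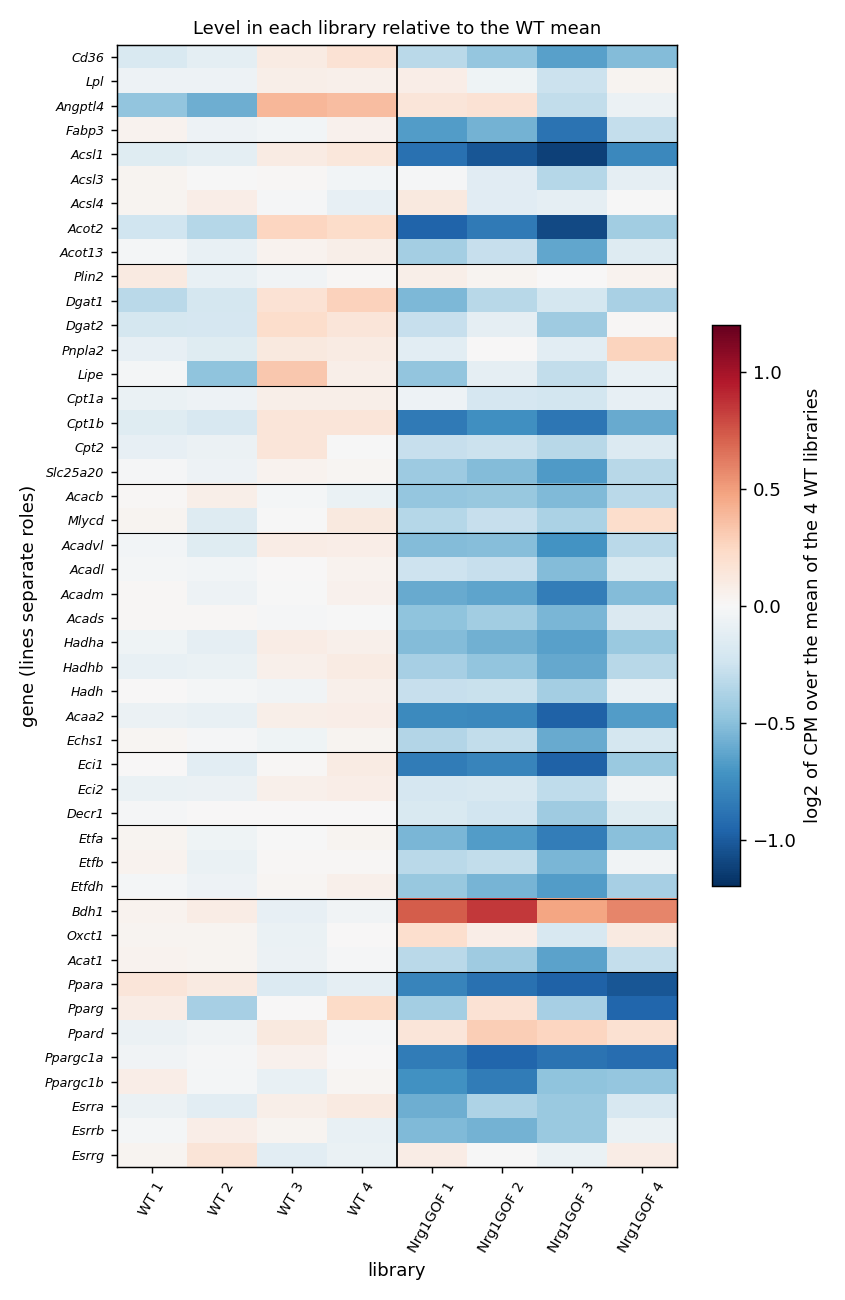
Level of each gene in each of the 8 libraries relative to the mean of the 4 WT libraries (colour, log2 scale), with genes as rows by role. Most rows are lower in the 4 *Nrg1GOF* columns, and within that group library 3 is the lowest in 35 of the 46 tested genes.

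Per kilobase of the longest annotated transcript, the most abundant of the 47 genes in WT ventricles was *Fabp3* at 571 CPM per kb, followed by *Acadl* at 406, *Acaa2* at 256, *Etfb* at 212 and *Etfa* at 190 CPM per kb. In all, 15 genes had more than 100 CPM per kb in WT, and 13 of them fell. The lowest tested gene was *Pparg*, at 1.25 ± 0.22 CPM per kb (SD, n = 4). *Bdh1*, which rose, was next to it at 2.51 ± 0.15 CPM per kb. On the same per-length scale *Cpt1b* was 4.6 times as abundant as *Cpt1a* in WT and 3.01 times in *Nrg1GOF*.

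When the libraries were scaled on the ventricular cardiomyocyte markers instead of all genes, a choice made after the data were seen, fewer of the genes were lower. Relative to those markers 9 of the 46 genes were lower (19.6%, against 1.4% of all genes tested), 13 were higher (28.3%, against 61.7%) and 24 were not called. The 9 that were lower relative to the markers were *Acsl1* (log2 fold change -0.53), *Ppara* (-0.48), *Ppargc1a* (-0.47), *Acot2* (-0.41), *Acaa2* (-0.37), *Cpt1b* (-0.34), *Eci1* (-0.34), *Acadm* (-0.23) and *Etfa* (-0.22). The 13 that were higher ran from *Hadh* (0.161) to *Bdh1* (1.1). The others of these were *Lpl*, *Acsl3*, *Acsl4*, *Plin2*, *Pnpla2*, *Cpt1a*, *Eci2*, *Decr1*, *Oxct1*, *Ppard* and *Esrrg*. This scaling moved the median of all genes to 0.42 and that of the 46 genes to 0.06. The 9 genes had also fallen on the TMM scale, and 7 genes there lay below -0.66, the log2 fold change of *Pln*, the marker that fell most among the called ones. Of the 29 genes that fell on the TMM scale, 18 were not called relative to the cardiomyocyte markers and 2 were higher, *Hadh* (0.161) and *Decr1* (0.177). The scale is the summed counts of the 12 markers, of which *Myh7* held 17610 ± 540 CPM in WT (SD, n = 4). On the TMM scale single markers ran from -0.14 (*Hspb7*) to -0.70 (*Ryr2*), neither called, and *Myh7* was at -0.48. *Hadh* (-0.26) and *Decr1* (-0.25) fell more there than *Hspb7* and *Myl2* (-0.24, not called). Within the *Nrg1GOF* group, the libraries had the same order for the summed markers (29710, 32070, 34030 and 36960 CPM in libraries 3, 2, 1 and 4) and for the summed β-oxidation genes (2178, 2468, 2512 and 2697 CPM). The WT libraries did not share an order: WT library 2 was the highest for the markers (45190 CPM) and the lowest for the β-oxidation genes (3259 CPM). These orders rest on 4 libraries a group and are given as a description.

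**Figure D4:**
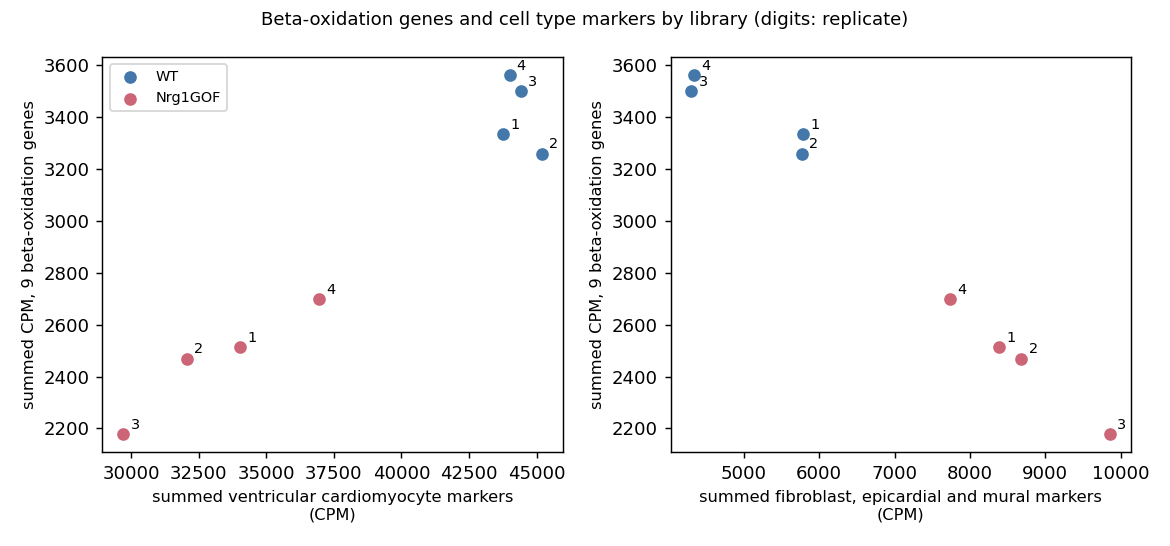
Summed level of the 9 β-oxidation genes (y axis, CPM) against the summed markers of ventricular cardiomyocytes (left, x axis, CPM) and of fibroblasts, epicardium and mural cells (right), 1 point a library. The *Nrg1GOF* libraries lie between 2178 and 2697 CPM and the WT libraries between 3259 and 3562 CPM, and on the x axes the groups do not overlap either.

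Other genes of fatty acid and mitochondrial metabolism were read from 9 further lists with 141 distinct genes, of which 127 were tested. In all, 43 were lower and 13 higher (44.1% called, against 28.7% of all genes tested), with a median log2 fold change of -0.14. With WT pairs summed, 31 of these genes were called in place of 56. The lists share genes, and markers of cell types moved beside them as given above. They too were chosen with earlier results of these data known, so their shares are a description. Of 12 further PPAR target genes 5 fell and none rose (41.7%, against 12.8% of all genes called lower), with a median of -0.49. They included *Plin4*, a lipid droplet coat protein (log2 fold change -1.01 ± 0.14, SE), *Pdk4*, the kinase that shuts pyruvate dehydrogenase (-0.95 ± 0.16), and the mitochondrial *Crat*, carnitine acetyltransferase (-0.63 ± 0.07). *Fabp4*, another of these targets, is the gene of the fat cell list given above (-0.49 ± 0.07).

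Of 22 further regulators 11 fell and 2 rose (59.1% called, against 28.7% of all genes). The 13 calls became 8 without *Nrg1GOF* library 2 or 3 or WT library 3, without a count filter, against WT libraries 1 and 2 alone and with WT pairs summed. *Prkaa2*, the catalytic subunit of the AMP-activated kinase found in muscle, fell by 0.74 ± 0.09 on the log2 scale (SE), and *Klf15*, a transcription factor of lipid and amino acid use, by 0.69 ± 0.10. Of 20 mitochondrial housekeeping genes 13 fell and none rose, with a median log2 fold change of -0.25. Among these, *Timm44* of the import motor and *Tufm*, the elongation factor of mitochondrial translation, both had -0.40. The 13 calls of this list became 8 without WT library 4, 7 against WT libraries 1 and 2 alone and 4 with WT pairs summed. Of 18 further genes of mitochondrial oxidation 6 fell and none rose (33.3% called, against 28.7% of all genes), led by *Mcee* (-0.51 ± 0.09, SE) and *Ivd* (-0.49 ± 0.09), which act in the breakdown of odd-chain products and of leucine.

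Of 14 peroxisomal genes 4 fell and 1 rose (35.7% called, against 28.7% of all genes), with *Hsd17b4*, the multifunctional enzyme of peroxisomal oxidation, at -0.33 ± 0.06 (log2 fold change, SE). The 5 calls became 3 on library totals, without a count filter and without *Nrg1GOF* library 2, 3 or 4 or WT library 3 or 4. They became 2 against WT libraries 1 and 2 alone and 1 with WT pairs summed. Of 12 further genes of acyl-CoA turnover 4 fell and 2 rose (50% called, against 28.7% of all genes). Among the falls were *Acot1* at -0.85 ± 0.13, under the same limit as *Acot2*, and the mitochondrial acetyl-CoA synthetase *Acss1* at -0.81 ± 0.15. The cytosolic *Acss2* at 0.28 ± 0.07 was among the rises. Of 17 further genes of triglycerides and droplets 2 fell and 2 rose (23.5% called, against 28.7% of all genes, and 2 genes called in all with WT pairs summed). Of 9 further uptake genes 2 fell and 2 rose (44.4% called, against 28.7% of all genes). The uptake genes included *Gpihbp1*, which holds lipoprotein lipase on capillaries (-0.78 ± 0.12), and *Fabp5*, an epidermal and endothelial fatty acid-binding protein (0.37 ± 0.07). The largest rises in these lists were of genes with an average log2 CPM under 1, named here after their values were seen: *Slc27a6*, a fatty acid transport protein (log2 fold change 1.58 ± 0.29, SE; edgeR adjusted p = 0.00287), *Cideb*, a droplet protein (0.99 ± 0.28), *Abcd2*, a peroxisomal transporter (0.95 ± 0.23), and, of the regulators, *Rxrg*, a retinoid X receptor (1.47 ± 0.29). Of 13 genes of fatty acid synthesis 4 rose and none fell (30.8% called, against 28.7% of all genes), among them the desaturases *Fads1* (0.31 ± 0.05) and *Fads2* (0.39 ± 0.12) and malic enzyme *Me1* (0.40 ± 0.08), with a median of 0.20. The list followed the WT pairs, at 1203 and 1232 CPM in WT libraries 3 and 4, 1470 and 1479 CPM in WT libraries 1 and 2 and 1467 to 1572 CPM in the *Nrg1GOF* libraries. Its calls numbered 2 without *Nrg1GOF* library 2 and with WT pairs summed, 7 on library totals without TMM scaling and 8 against WT libraries 3 and 4 alone.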

How the data were processed

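Polyadenylated RNA was sequenced from 4 *Nrg1GOF* and 4 WT ventricle samples with a directional library kit (100 ng of RNA, single reads of 60 bases). The authors deposited 1 table of estimated (expected) counts per Ensembl gene, made per the submitters' processing notes with cutadapt and RSEM 1.3.1 on GRCm38. The aligner and the strand setting are not given in the sources used here. A gene that shares reads with a near-identical copy is counted by RSEM's split.

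The deposited expected counts were rounded. Genes were filtered with filterByExpr, scaled by TMM and tested with the quasi-likelihood F-test of edgeR 4.0.16 (R 4.3.3) over the 8 libraries with no covariate, and p-values were adjusted by Benjamini-Hochberg over all 15580 genes. Standard errors were taken from the log2 fold change and F (its absolute value over the root of F). CPM are on the TMM-scaled library size. Library totals were 8038641 to 26786039 counts, so that 3 counts are 0.115 to 0.375 CPM. Symbols, positions and transcript lengths came from GENCODE M21 (53274 of 53465 identifiers matched). Ratios were compared by two-sided exact permutation tests.

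The test was run on simulated data first. The members and lists were chosen with earlier results of these data known. Values in every library are given for the 12 called members with the largest changes (average log2 CPM of at least 1) and for *Cpt1a*, *Cpt1b*, *Ppara*, *Ppargc1a*, *Esrra*, *Acadm*, *Cd36* and *Oxct1*, and of each further list called genes were named from the 2 highest and 2 lowest changes at the same minimum level. 4 genes under that level were named after their values were seen. Of 244 listed pathway and marker genes 243 were matched. Alternatives were a replicate block, DESeq2 1.42.0 and its size factors, limma 3.58.1 (voom), library totals, other count filters and thresholds, and leaving out libraries. Scaling on cardiomyocyte markers and the search for the half-site alone were added after seeing the data.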

Additional observations from a re-analysis of the deposited data

Results flagged for a closer look

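Of 102 groups of 4 libraries examined for a library far from the others, 3 were picked out, where chance alone picks out about 1 in 20, or 5.1. All of them concern *Nrg1GOF* library 4. Its total of 8038641 counts stood apart from the 20578081 to 22547833 counts of the other *Nrg1GOF* libraries (gap over range 0.864). *Mlycd* was at 33.4 CPM in it and at 22.1 to 23.8 CPM in the others (0.849). The ratio of *Mlycd* to *Acacb* was 0.239 in it and 0.18 to 0.187 in the others (0.856). The part of sequencing depth in the *Mlycd* values was not tested.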

How the results depend on the processing

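Of the 31 called genes, 21 kept their call under each of the 18 alternatives in libraries, count filter, scaling or tool, cardiomyocyte scaling and the stricter thresholds apart (23 were called at an adjusted p under 0.01), and the number called was 27 to 33 on leaving out 1 library and 32 with DESeq2, with limma-voom and with the replicate block, which called 30 lower and 2 higher and added *Dgat1* (edgeR adjusted p = 0.0344). The numbers were not used to pair the samples in the main fit, since the embryos are different animals. Same-numbered libraries correlated at 0.0492 to 0.199 and the others at -0.263 to 0.187, not every library best with its own number. With 4 libraries a group these values cannot exclude a shared litter or batch, which the labels do not name. The number called higher was 1 to 2 on leaving out 1 library, and 1 against WT libraries 3 and 4 alone, with WT pairs summed, without a count filter, at an adjusted p under 0.01 and at an absolute log2 fold change of at least 0.5. That last limit left 15 called, 14 of them lower. The further lists had 31 calls with WT pairs summed, 35 at 0.01 and 15 at the fold limit, against 56.

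Scaling on cardiomyocyte markers, chosen after seeing the data, gave 13 higher, 9 lower and a median of 0.0571. It turned the log2 fold change of *Acadl* to 0.118, *Acads* 0.0177, *Acat1* 0.00269, *Acot13* 0.0572, *Acsl3* 0.276, *Acsl4* 0.397, *Cpt1a* 0.276, *Cpt2* 0.167, *Decr1* 0.177, *Dgat1* 0.0742, *Dgat2* 0.223, *Echs1* 0.057, *Eci2* 0.236, *Esrra* 0.028, *Esrrb* 0.0167, *Etfb* 0.12, *Hadh* 0.161, *Lipe* 0.185, *Lpl* 0.374, *Mlycd* 0.221 and *Pparg* 0.126.

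Other reversals were of genes not called. *Angptl4* became -0.000509 with 10 counts in every library and -0.374 against WT libraries 3 and 4 alone (0.53 against WT libraries 1 and 2), which gave *Acsl4* 0.0372 and *Pnpla2* -0.102. WT libraries 1 and 2 alone gave *Dgat2* 0.00265, *Esrrg* -0.0739 and *Lpl* 0.0182. Library totals gave *Acsl4* 0.014 and limma-voom *Pnpla2* -0.0247. Leaving out 1 library gave ranges of -0.147 to 0.161 for *Angptl4*, -0.0858 to 0.00749 for *Acsl4*, -0.0888 to 0.0266 for *Lpl*, -0.0729 to 0.0523 for *Pnpla2* and -0.0178 to 0.0773 for *Esrrg*. The log2 ratio of Cpt1b to Cpt1a differed by -0.651 to -0.556, the log2 ratio of Acsl1 to Acsl4 by -0.983 to -0.838 and the log2 ratio of Mlycd to Acacb by 0.152 to 0.311, and without WT library 4 all 3 had adjusted p = 0.0381 (exact permutation test). The cause of these changes was not tested. *Ucp3* lies at the limit that the depth allows.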
